A study of Homo sapiens with 3 samples.

Results

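Store-operated calcium entry and the handling of calcium in the endoplasmic reticulum (ER) were represented by 10 genes in 4 families, namely the ER calcium sensors STIM1 and STIM2, the plasma membrane channel subunits ORAI1, ORAI2 and ORAI3, the inositol trisphosphate (IP3) receptors ITPR1, ITPR2 and ITPR3, and the ER calcium pumps ATP2A2 and ATP2A3. The members were taken as all probe sets whose platform annotation lists one of these symbols. This gave 35 of the 54675 probe sets of the array, each listed for 1 gene only, and 10 of 19775 genes. RNA came from 3 untreated, unstressed cultures of HEK-293T cells, a human embryonic kidney line that per its sample records carries an inserted temperature-sensitive SV40 T-antigen gene, with 1 Affymetrix U133 Plus 2.0 array per culture. All were grown in DMEM with 10% FBS. The 24 h culture was seeded with 1000000 cells in a 6-well dish (RNA integrity number 9.5), the low-seeded 48 h culture with 375000 (9.6) and the high-seeded 48 h culture with 750000 (10.0). The cultures differ in harvest time and seeding at once, which cannot be told apart from each other or from a batch, and nothing in the sources states whether they came from separate passages.

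Calcium stored in the ER is released when IP3, made by phospholipase C at the plasma membrane, opens the IP3 receptors. STIM proteins sense the fall of calcium in the ER lumen with an EF-hand domain, gather where the ER touches the plasma membrane, and open ORAI channels, through which calcium enters from outside. The SERCA pumps, encoded by the ATP2A genes, then return calcium to the ER. HEK-293 cells have been a common host for studying this pathway with transfected STIM and ORAI.

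Of the 10 genes, 7 were above background: STIM2, all ORAI genes, ITPR2, ITPR3 and ATP2A2. STIM1, ITPR1 and ATP2A3 were not. Over all genes of the array 51.8% were above background by the same rule. Above background means here that a signal lay, on every one of the 3 arrays, over the 95th percentile of 363 probe sets for olfactory and taste receptors and for genes of unrelated tissues. This threshold was a signal of 84.4 in the 24 h, 103 in the low-seeded and 109.999 in the high-seeded 48 h culture. For a gene, a single such probe set sufficed. In RNA of whole cultures, fewer cells with a transcript and less of it per cell cannot be told apart. By probe set, 12 of 35 were above background, against 38.6% of the array, while 6 exceeded the threshold on 2 arrays, 6 on 1 array and 11 on none. A gene with more probe sets has more chances to pass. The share of all genes above background was 34.9% for those with 1 probe set, as for ORAI1 and ORAI3, 57.9% with 2, as for STIM1, 70.2% with 3, as for STIM2, 78.0% with 4, as for ITPR2, ITPR3 and ATP2A2, 80.0% with 5, as for ITPR1 and ATP2A3, and 79.6% with 6, as for ORAI2.

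**Figure D1:**
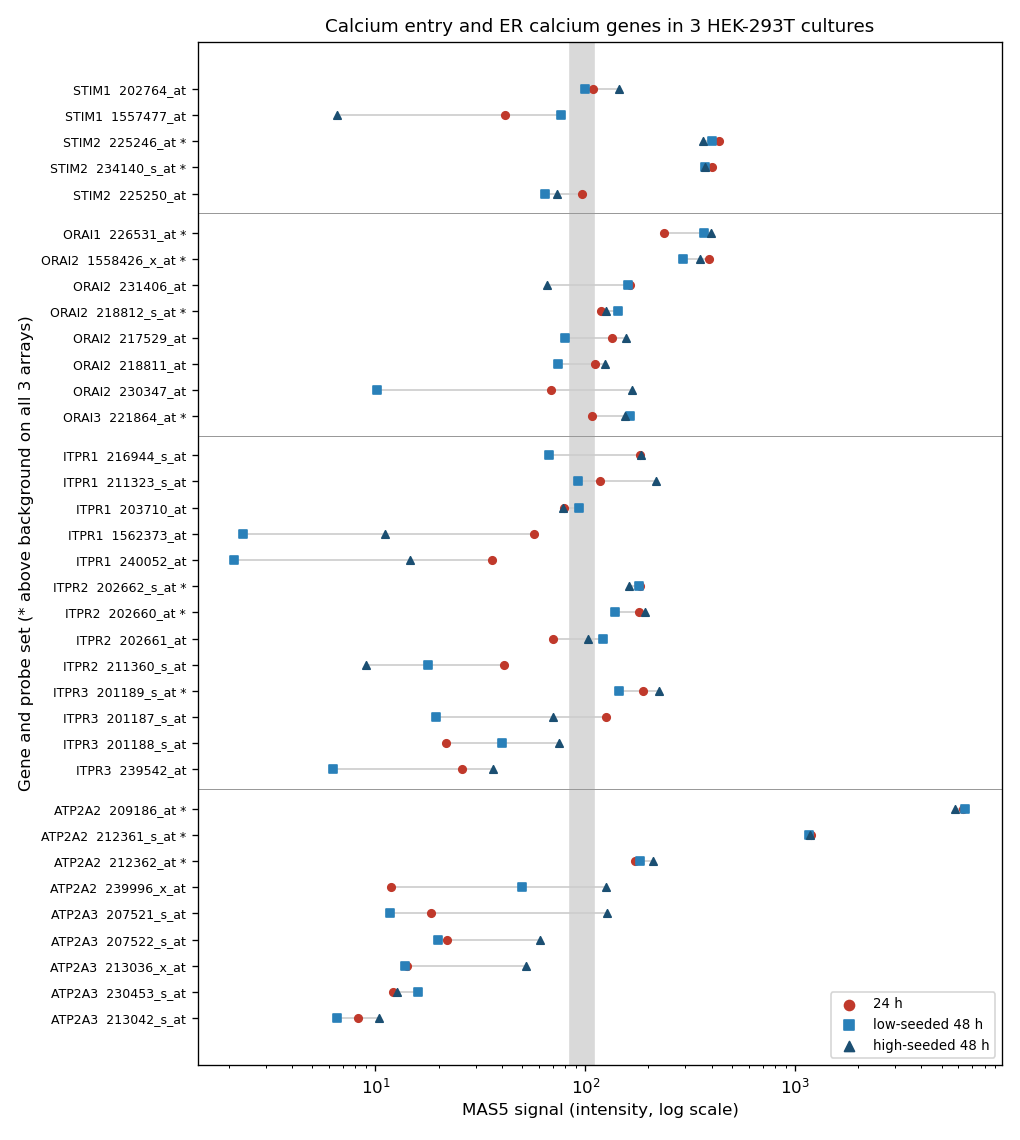
MAS5 signals of the 35 probe sets of the 10 genes, by family from top to bottom (sensors, channel subunits, IP3 receptors, pumps). Signal intensity runs along a horizontal log axis, symbols are the 3 cultures, the grey band spans the thresholds of the 3 arrays and a star marks the 12 probe sets above background on every array. The brightest probe set of ATP2A2 lies far to the right of the band, and the probe sets of ATP2A3 lie to its left except 1 signal in the high-seeded 48 h culture.

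Signals cannot be set against each other between probe sets as amounts of transcript, since each binds its target with its own strength. Within ATP2A2 alone the mean signals of 4 probe sets ran from 62.3 to 6202, a span of 99.5 times. A call against a common threshold depends on this strength too, so calls do not rank paralogs by amount of transcript. Paralogs are therefore described by their calls with this limit, and compared by how each moved from array to array.

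The sensors differed in their calls. STIM2, which responds to small losses of ER calcium, gave 434 in the 24 h, 399.8 in the low-seeded and 364 in the high-seeded 48 h culture on probe set 225246_at (mean 399 ± 34.9, SD, n = 3 arrays). Its probe set 234140_s_at gave 403, 371 and 373 in the same order (382 ± 17.7). All 6 of these signals were at least 3.31 times the threshold of their array. The third probe set of STIM2 gave 96.9, 64.2 and 73.5 and exceeded the threshold in the 24 h culture only. STIM1, the sensor that drives entry after strong depletion, gave 109, 99.9 and 145 on probe set 202764_at (118 ± 24.1). This was 1.29 and 1.32 times the threshold in the 24 h culture and the high-seeded 48 h culture and 0.974 times in the low-seeded one, the closest of any member probe set left below. Its other probe set, 1557477_at, gave 41.6, 76.7 and 6.52 and stayed under the threshold on every array. STIM1 thus missed the call by a single array, and it passed in 4 of 13 settings tried, including the 90th percentile and 2 arrays sufficing. STIM2 passed in all 13.

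All 3 channel subunits were above background. ORAI1, which forms the pore of the calcium release-activated channel, has 1 probe set, with signals of 237 in the 24 h, 367 in the low-seeded and 398 in the high-seeded 48 h culture (334 ± 85.1, SD, n = 3 arrays). The lowest of these was 2.81 times its threshold, and the 24 h culture was below both others. ORAI3, the subunit that also takes part in store-independent channels, gave 108, 163 and 155 on its only probe set (142 ± 29.5), between 1.28 and 1.58 times the threshold. As for ORAI1, its 24 h signal was the lowest.

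ORAI2, a subunit that can join ORAI1 in mixed channels, has 6 probe sets, and they did not behave alike. Probe set 1558426_x_at gave 391, 291 and 352 (345 ± 50.1, SD, n = 3 arrays), at least 2.84 times the threshold. Probe set 218812_s_at gave 119, 143 and 126 (129 ± 12.6) and was the member probe set nearest above the threshold, at 1.14 times it in the high-seeded 48 h culture. The brighter was highest in the 24 h culture and the dimmer lowest there. Of the other 4, 3 exceeded the threshold on 2 arrays and 1 on 1 array. Both probe sets called for ORAI2 are of kinds that can share sequence with other transcripts (marked _s_at or _x_at). Without such probe sets ORAI2 was not above background, and ORAI1 and ORAI3 still were.

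Among the IP3 receptors, ITPR2 and ITPR3 were above background and ITPR1 was not. ITPR2, the isoform most sensitive to IP3, gave 183 in the 24 h, 179.6 in the low-seeded and 161 in the high-seeded 48 h culture on probe set 202662_s_at (175 ± 11.6, SD, n = 3 arrays). On 202660_at it gave 181, 139 and 193 (171 ± 28.3). Both stood between 1.36 and 2.16 times the threshold. The remaining probe sets, 202661_at and 211360_s_at, had means of 98.3 and 22.6 and were not above background. ITPR3, the isoform least sensitive to IP3, was called on 1 of 4 probe sets, 201189_s_at, at 188, 145 and 224 (186 ± 39.3). Its other 3 had means from 22.9 to 71.6. Without probe sets marked _s_at or _x_at ITPR3 was not above background, and ITPR2 still was. ITPR3 passed in 10 of 13 settings and ITPR2 in 12.

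ITPR1, the main isoform of cerebellar neurons, was above background on none of 5 probe sets, and the cultures differed on the brightest of them. Probe set 216944_s_at gave 182 in the 24 h culture and 185 in the high-seeded 48 h culture, 2.15 and 1.68 times the threshold, and 67.0 in the low-seeded 48 h culture, 0.653 times it. Probe set 211323_s_at gave 118 and 217 on the former arrays and 92.1 on the latter. The low-seeded 48 h culture alone kept both under the threshold, and without it ITPR1 and STIM1 were above background, 9 of 10 genes in all. Fewer of the 35 probe sets exceeded the threshold in that culture, 14 against 20 in each of the others. Over all probe sets of the array the shares were 42.7% there, 46.9% in the 24 h culture and 43.5% in the high-seeded one. In the ITPR1 and STIM1 calls, a property of this array and a difference between cultures cannot be told apart.

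The pumps had different calls. ATP2A2, which encodes the SERCA2 pump present in most cells, gave 6336 in the 24 h, 6482 in the low-seeded and 5787 in the high-seeded 48 h culture on probe set 209186_at (6202 ± 367, SD, n = 3 arrays), 52.6 to 75.1 times the threshold. On 212361_s_at it gave 1190.4, 1165 and 1178 (1178 ± 12.9), a coefficient of variation of 1.09%. On 212362_at it gave 173, 181 and 209 (188 ± 19.0). These 3 probe sets were above background and differed little between cultures. The fourth, 239996_x_at, gave 11.8, 49.9 and 125 and passed in the high-seeded 48 h culture only.

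ATP2A3, which encodes the SERCA3 pump of blood cells, platelets and some epithelia, was above background on none of 5 probe sets and in none of the 13 settings. Its brightest, 207521_s_at, gave 18.5 in the 24 h, 11.7 in the low-seeded and 127 in the high-seeded 48 h culture. Only the last exceeded its threshold, at 1.16 times it. The next, 207522_s_at, gave 22.0, 19.8 and 60.7, and 213036_x_at gave 14.1, 13.8 and 52.3, each highest in the same culture. The other probe sets, 230453_s_at and 213042_s_at, had means of 13.6 and 8.41. The median signal of the background reference was also highest on that array, 24.5 against 16.5 in the 24 h and 19.0 in the low-seeded 48 h culture, and its part in these values was not tested. Markers of blood cells, where SERCA3 is typical, were above background for 0 of 6 genes measured. Their brightest probe sets summed to signals of 164, 283 and 445 in the 24 h, low-seeded and high-seeded 48 h cultures. Named after its values were seen, the platelet gene GP9 gave 10.1, 25.0 and 118 and exceeded the threshold of the last array. The leukocyte gene PTPRC, named likewise, gave 6.03, 15.2 and 68.7, under the threshold of every array. ITGA2B, an integrin of platelets, was highest in the low-seeded 48 h culture, at 93.4. The same sums for markers of mature kidney (331, 389 and 512) and endothelium (154, 110 and 270) were also highest in the high-seeded 48 h culture. Those of fibroblast, muscle and HEK-293 markers were not. A link of any of these values to ATP2A3 was not tested.

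The SD over the arrays on the log2 scale had a median of 0.14 for the 12 member probe sets above background and of 0.89 for the other 23, against 0.15 and 0.90 over the array. A probe set low on 1 array falls into the latter group, so the rule itself sets part of this difference. It was lowest for ATP2A2 on 212361_s_at, at 0.02, and among those above background highest for ORAI1, at 0.40. With so few arrays every value here has limited precision, and the SDs hold the differences between culture conditions as well.

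The 24 h culture was next set against both 48 h cultures, which themselves differ in seeding and serve here as replicates of harvest time. None of the 18 member probe sets tested was called (limma, adjusted p under 0.05), against 0.185% of the 23250 tested on the whole array, and 17 members were too dim to enter. At an unadjusted p under 0.05 only ORAI1 passed, against 9.06% of all probe sets tested, and after scaling the arrays to equal medians 0 members did. Differences were taken on the scale log2(signal + 20.4), which understates the change of low signals. The comparison has 1 array against 2, so the 24 h culture has no spread of its own. The spread of the 48 h pair, drawn by limma toward the trend over all probe sets tested, stands in for it. The p-values thus rest in large part on the spread of other probe sets. They speak only of the spread between these samples, which may be technical.

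At 24 h the difference of ORAI1 was -0.64 on the log2 scale (standard error 0.28, limma, adjusted p = 0.514), while the 48 h cultures differed from each other by 0.11. ORAI3 had a difference of -0.48 (standard error 0.42, limma, adjusted p = 0.802), with 0.06 between the 48 h cultures. For both genes the 24 h signal stood apart from a close pair, but neither difference passed the test. The brightest probe set of ORAI2 had the opposite sign, at 0.27 (standard error 0.28), and its next one above background gave -0.15.

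For the sensors and the pumps no difference exceeded its standard error. STIM2 had differences of 0.18 and 0.11 on its tested probe sets and STIM1 had -0.13, with standard errors from 0.25 to 0.47. ATP2A2 gave 0.05 (standard error 0.10) and 0.02 (0.14) on the brighter probe sets and -0.16 (0.37) on the dimmest tested. Against a single 48 h culture STIM1 gave -0.36 or 0.10 and ATP2A2 on 209186_at gave 0.13 or -0.03, so their signs rest on 1 array. The standard error of STIM1, 0.47, was the widest of these, so a sizeable change of this gene could not be detected with these arrays.

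The tested probe sets of ITPR2 gave 0.09 and 0.12, and that of ITPR3 gave 0.05, with standard errors from 0.38 to 0.40. Against a single 48 h culture, 202660_at of ITPR2 gave -0.09 or 0.33 and ITPR3 gave -0.23 or 0.33, so these signs rest on 1 array. Those of ITPR1 gave -0.24 and 0.59, but the 48 h cultures themselves differed by 1.08 and 1.23 there. Across the 18 probe sets the 24 h signal was above both 48 h signals in 6, below both in 4 and between them in 8, where 35.1% and 35.3% of all tested probe sets lay above and below. The median difference was 0.07 for the members and 0.00494 over all probe sets tested.

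**Figure D2:**
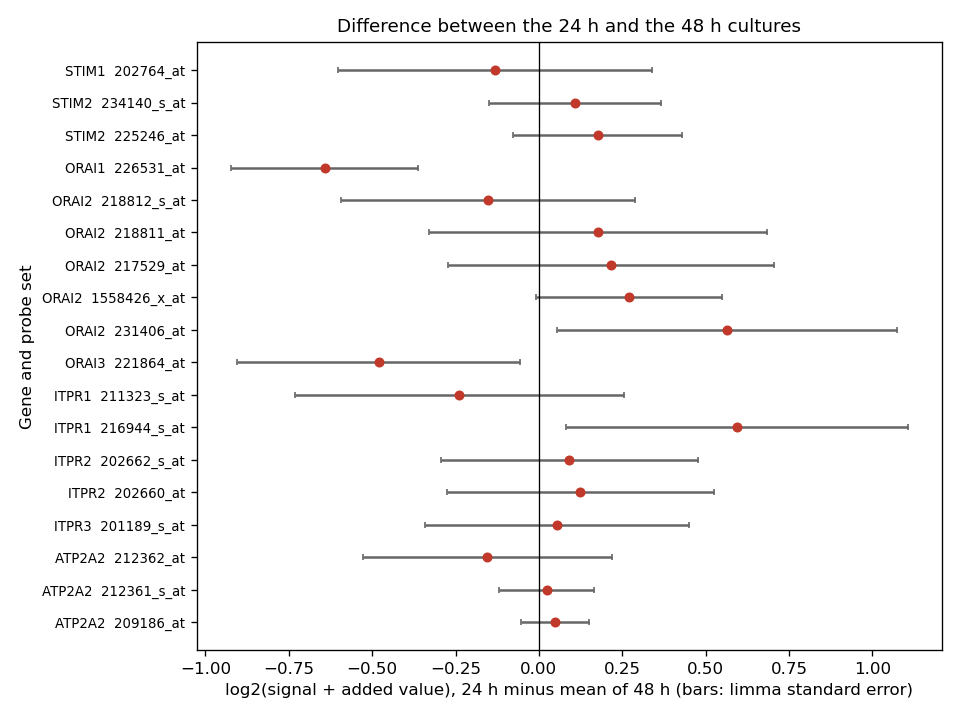
Difference of the 24 h culture from the mean of both 48 h cultures for the 18 member probe sets tested. The horizontal axis is the difference on the log2 scale, with limma standard errors as bars, and each row is a probe set. ORAI1, at -0.64, is the only one whose unadjusted p was under 0.05, and no adjusted p was under 0.514.

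Paralogs were also compared within each array, as the log2 ratio of their brightest probe sets. A ratio carries the binding strengths of its probe sets, so only its change from array to array can be read. For ORAI1 over ORAI2 it was -0.67 in the 24 h, 0.31 in the low-seeded and 0.17 in the high-seeded 48 h one, a change at 24 h of -0.91 where the 48 h cultures differed by 0.15. For ORAI2 over ORAI3 it was 1.68, 0.77 and 1.08, a change of 0.75 against 0.32 between the 48 h cultures. The ratio of ORAI2 to both relatives was thus higher in the 24 h culture on these probe sets. Both ratios share the ORAI2 probe set, whose own difference was 0.27, beside -0.64 for ORAI1 and -0.48 for ORAI3. With the other called probe set of ORAI2, chosen for this after the values were seen, the changes were -0.49 and 0.33, in the same direction and smaller. That probe set was itself lower at 24 h, by -0.15, though less so than ORAI1 and ORAI3. With 1 culture at 24 h these ratios were not tested.

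ORAI1 over ORAI3 was 1.01, 1.08 and 1.25, a change of -0.16 that was no larger than the 0.17 between the 48 h cultures. ORAI1 and ORAI3 therefore kept about the same ratio over the 3 arrays. For ITPR2 over ITPR3 the ratio was -0.04 in the 24 h culture, between 0.27 and -0.43 in the 48 h cultures. No pair could be formed for the sensors or the pumps, since only 1 gene of each was above background.

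**Figure D3:**
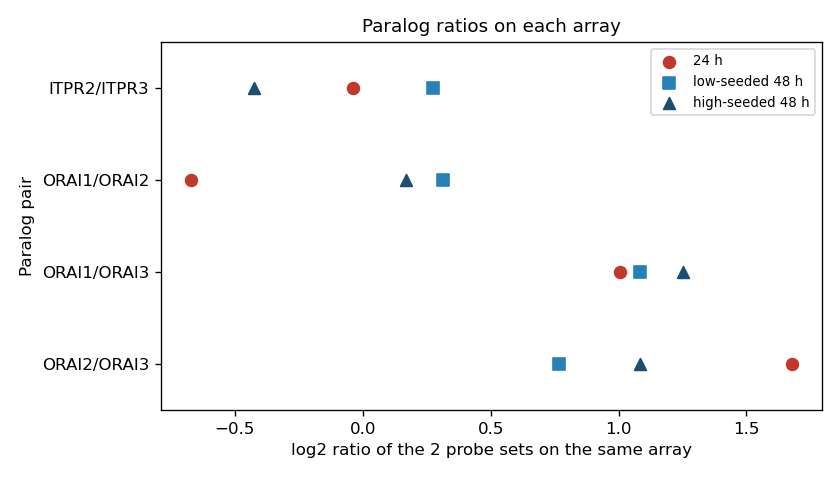
Log2 ratio of the brightest above-background probe sets of 2 paralogs on the same array (horizontal axis) for the 4 pairs that could be formed, with 1 symbol per culture. Positions along the axis depend on the probe sets, so only the distance between symbols within a row can be read. ORAI1 over ORAI2 lies at -0.67 in the 24 h culture and at 0.17 and 0.31 in the 48 h cultures.

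Other genes of calcium signalling gave the members a setting. Of 80 genes measured in 10 lists, 47 (58.8%) were above background, where all genes of the array gave 51.8%. These shares were not matched for the number of probe sets per gene, on which they depend. Levels below are signals of the brightest probe set, as means ± SD of 3 arrays.

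Of 7 genes that regulate STIM or ORAI, 5 were above background. Among them SARAF, which promotes the inactivation of store-operated entry, gave 5031 in the 24 h, 3735 in the low-seeded and 4372 in the high-seeded 48 h one, and STIMATE, an ER protein that aids STIM at junctions, gave 617 ± 51.6. These examples were chosen after the values were seen. The EF-hand protein CRACR2B (74.1 ± 25.8) and TMEM178A (29.0 ± 20.2) were not above background. Of the TRPC channels, other candidates for calcium entry, TRPC1 alone among 5 measured was above background, at 461 ± 134, with 3 of 3 probe sets passing. On the brightest its signals were 613 in the 24 h culture and 412 and 358 at 48 h, a difference of 0.65 (standard error 0.24). Its other probe sets gave differences of 0.65 (standard error 0.30) and 0.24 (0.27). None of these differences was called.

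The ryanodine receptors, ATP2A1 and the small SERCA inhibitors were not above background. Ryanodine receptors, the release channels of muscle and neurons, were above background for 0 of 3 genes, with means from 9.88 for RYR1 to 58.3 for RYR2. ATP2A1, the SERCA1 pump of skeletal muscle, gave 27.7 ± 24.7, and the small SERCA inhibitors PLN and SLN gave 30.9 ± 26.9 and 53.4 ± 8.37. Together with ATP2A3, this left ATP2A2 as the only SERCA gene above background. Of 13 calcium-binding proteins of the ER, 9 were above background. CALR3 (15.3 ± 8.73), the muscle calsequestrins CASQ1 (18.5 ± 22.8) and CASQ2 (5.88 ± 1.57), and RCN3 (62.8 ± 39.1) were not. Calreticulin (CALR), a luminal buffer named here after its values were seen, had 3 of 3 probe sets above background.

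Of 10 genes of calcium extrusion, Golgi uptake and sodium-calcium exchange, 4 were above background. These were the plasma membrane pumps ATP2B1 (1660.3 ± 169.8) and ATP2B4 (382 ± 49.5), the Golgi pump ATP2C1 (574 ± 85.4) and SLC8B1, the exchanger that moves calcium out of mitochondria (170.003 ± 22.5). All 7 measured genes of the mitochondrial uniporter list were above background, among them the pore protein MCU, picked as an example after its values were seen, at 613 ± 9.46. Of 10 phospholipase C isoforms, 6 were above background. The others were PLCB2 (31.5 ± 21.5), PLCD1 (66.2 ± 10.7), PLCD4 (22.8 ± 8.63) and PLCE1 (123 ± 25.0), of which PLCE1 came closest.

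Downstream of entry, 9 of 12 calcineurin and NFAT genes were above background. The exceptions were the testis subunit PPP3R2 (23.2 ± 6.39), NFATC2 (22.5 ± 16.0) and RCAN2 (102 ± 22.1). RCAN2 missed the threshold only in the high-seeded 48 h culture, at 83.8. Of 10 measured partners of the IP3 receptors and ER leak genes, 6 were above background, and BCL2 (121 ± 42.9), IRAG1 (35.0 ± 28.9), IRAG2 (13.9 ± 13.4) and TESPA1 (59.0 ± 40.2) were not. On its brightest probe set BCL2 missed the threshold only in the low-seeded 48 h culture, at 84.5. Of the 113 probe sets of all these lists tested between the cultures, 70 (61.9%) had a higher signal at 24 h, where 50.9% of all tested probe sets did, and 0 were called, with a lowest adjusted p of 0.143 (limma), for CALR. Their median difference was 0.08 on the log2 scale.

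**Figure D4:**
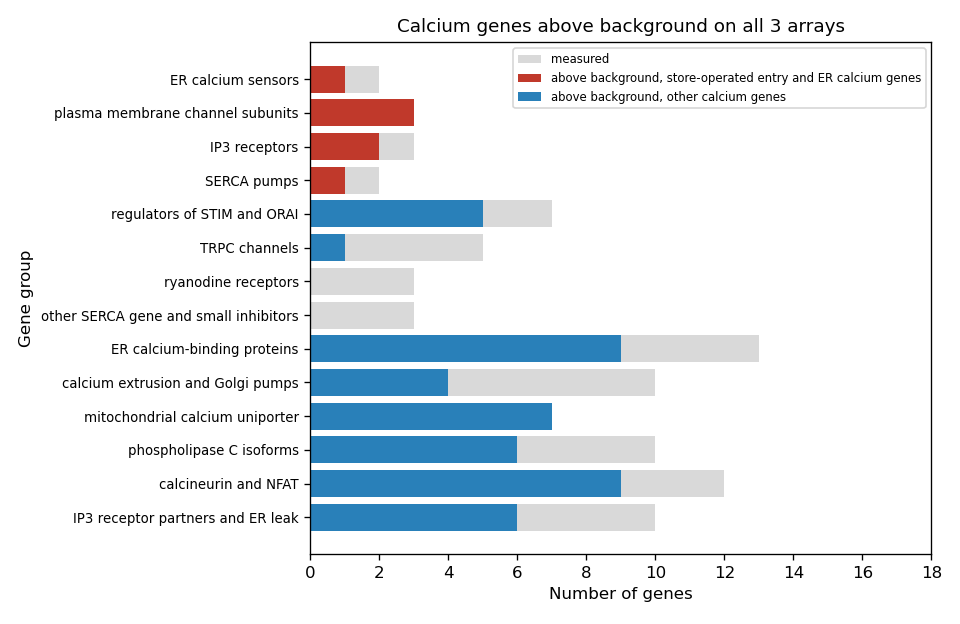
Genes above background on all 3 arrays among those measured in the 4 families of store-operated entry and ER calcium and in 10 lists of other calcium genes. The horizontal axis counts genes, grey bars are genes measured and coloured bars those above background. All 3 ORAI genes and all 7 genes of the mitochondrial uniporter list were above background, and no ryanodine receptor was.

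The cells carried the markers of their line in part. Of 6 markers of HEK-293 cells, 5 were above background, with, as examples chosen after the values were seen, vimentin (VIM) at 13344 ± 746 and the neurofilament NEFL at 2076 ± 40.7, whereas the kidney factor PAX2 gave 129, 85.5 and 146 and missed the threshold in the low-seeded 48 h culture. Of 6 measured markers of mature kidney, LRP2 alone was above background. Fibroblast markers were above background for COL1A1 alone of 5, and those of endothelium and muscle for 0 of 4 and 0 of 5.

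For each of the 7 genes above background, the gene of these lists with the most similar course over the 3 arrays was sought by the root mean square distance of centred log2 signals. With 47 candidates and 3 arrays such likeness is a description only. The distance was not scaled to a gene's own spread, so genes that varied little lie near each other whatever their order over the arrays. STIM2 lay nearest to PDIA6, an ER disulfide isomerase, at a distance of 0.00457, and ORAI2 nearest to SARAF, at 0.0230. ITPR2 and ATP2A2 were both nearest to MICU2, a regulator of the mitochondrial uniporter, at 0.00849 and 0.0288, and ITPR3 to PPP3R1, a calcineurin subunit, at 0.0677. ORAI1 and ORAI3 lay farther from these candidates, which leave out the members themselves, the nearest being NFATC1 at 0.166 and PLCG1 at 0.172. Their log2 SDs, 0.40 and 0.32, were the largest among the brightest probe sets of these 7 genes, which by itself lengthens the distance.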

How the data were processed

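Total RNA of 3 HEK-293T cultures was labelled and hybridised by the authors to 1-colour Affymetrix arrays. The deposited values are MAS5 signals (GCOS 1.0 in the submitters' processing notes), an intensity on a linear scale that the authors had scaled to a common target, since the 2% trimmed mean was 500.07 on every array. Absent/present calls were not used here. Probe sets were named through the platform annotation, whose symbols already matched those of GRCh38.p14 by gene ID. As background, 127 probe sets of olfactory and taste receptors and 236 of tissue-restricted genes were used, of which 4 were themselves above background (those of TNNT3, TNNI3, CRYGD and IL13). The 28 probe sets of receptor pseudogenes were left out once the thresholds had been seen and were added back as an alternative.

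The contrast of 24 h against 48 h was fitted in limma 3.58.1 (R 4.3.3), with a mean-variance trend, on log2(signal + 20.4), where 20.4 is the median signal of the background probe sets. Probe sets entered where the mean log2 signal exceeded that of a signal of 98.4, the mean threshold. The fit leaves 1 residual degree of freedom. The script was tested on simulated data drawn with the spread of this same fit. That test cannot show whether this spread holds for the 24 h culture. P-values were adjusted by the Benjamini-Hochberg method over all probe sets tested. Named genes were the members, the smaller side of each list where at most 5 genes, list genes called between cultures, of which there were none, and the nearest gene to each member. Genes named beyond this rule (the ryanodine receptors, ATP2A1, PLN, SLN, STIMATE, CALR, MCU and the markers VIM, NEFL, PTPRC, GP9 and ITGA2B) were chosen after their values were seen. The members and lists were chosen with earlier results of these data known. No protein sequences were analysed here, and the sequences of the probes were not used.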

Additional observations from a re-analysis of the deposited data

How the results depend on the processing

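Of the counts above background, 12 member probe sets became 6 without probe sets marked _s_at or _x_at, and 7 member genes became 4 when most probe sets of a gene were required to pass, where ORAI2, ITPR2 and ITPR3 were lost. The other alternatives gave 8 to 18 probe sets and 5 to 9 genes, among them 5 at the 99th percentile and 9 with receptors as the only reference. Over the arrays left out the counts ran from 12 to 17 probe sets, 7 to 9 genes and 47 to 49 genes of the pathway lists. Leaving out an array can only keep or raise these counts, since each array has its own threshold and all remaining arrays must pass. STIM2, ORAI1 and ATP2A2 were above background in every setting run, ATP2A3 in none, and STIM1 and ITPR1 in 4 of 13. Between the cultures 0 member probe sets were called in every setting that could be tested, while at an unadjusted p under 0.05 there were 1 in the reported fit, 2 without the filter or the trend and 0 after scaling to equal medians. The 8 member probe sets with a 24 h signal between those at 48 h change sign with the 48 h array left out, and with 1 array left out no residual degrees of freedom remain, so those differences have no test. Over the whole array the calls numbered 43, and they were 91 with no filter, 74 after quantile normalization, 14 after scaling to equal medians (7 higher and 7 lower, against 34 and 9) and 0 without the trend (1363 at an unadjusted p under 0.05). The change of the ORAI1 to ORAI2 ratio, -0.91, was -0.77 with 4 times the added value and -0.49 with the second probe set of ORAI2, and that of ORAI2 to ORAI3, 0.75, was 0.33 with the latter. These second probe sets, and the reference with pseudogenes, were alternatives chosen after seeing the data. With 1 of the 48 h arrays left out the changes ran from -0.99 to -0.84 for ORAI1 to ORAI2, 0.59 to 0.91 for ORAI2 to ORAI3, -0.25 to -0.08 for ORAI1 to ORAI3 and -0.31 to 0.39 for ITPR2 to ITPR3, whose sign thus rested on 1 array. No paired analysis was possible because the sample records give no replicate numbers and only 1 culture was harvested at 24 h. Signal over background limits the dim genes, whose SD over the arrays was a median of 0.89 on the log2 scale.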
